A study of Homo sapiens and Mus musculus with 69 samples.

Results

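The ligands through which a tumour cell meets natural killer (NK) cells, T cells and macrophages were followed across 4 human small cell lung cancer (SCLC) lines and 1 mouse SCLC line. The 10 human genes, named with earlier results of these data known, are MICA, MICB, ULBP1, ULBP2, ULBP3, CD274, PDCD1LG2, CD276, PVR and CD47, among 20516 genes in the human expression table. In the mouse table of 18501 genes the 5 orthologs Cd274, Pdcd1lg2, Cd276, Pvr and Cd47 were used. The values are bulk RNA-seq levels on a log2(RPKM + 1) scale, where RPKM is reads per kilobase of gene, scaled to library size, so that a gene with no assigned reads is listed at 0 and fold changes of low genes are understated. There were 60 human libraries in 20 groups and 9 mouse libraries, with 3 libraries in each group.

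The H82, H524 and H69 lines carried a doxycycline-inducible vector for the NOTCH1 intracellular domain (N1ICD), and were compared with and without doxycycline and with their parental line. H82 cells with this vector were also compared as REST KO and STING KO cells made by CRISPR-Cas9, and H524 cells were also given an inducible REST vector in place of N1ICD. The COR-L88 line, intact or STING KO, was treated with DMSO or with TAS1440, an inhibitor of the histone demethylase LSD1, and intact COR-L88 cells also received TAS1440 with a gamma-secretase inhibitor (GSI), which blocks the cleavage that releases the Notch intracellular domain. KP1, a mouse line mutant for Rb1 and Trp53, received DMSO, TAS1440 or TAS1440 with GSI. Per the study's methods the overexpression cultures were collected as adherent cells after long culture with doxycycline, so the choice of adherent cells and the induction cannot be told apart. Single-cell KO clones were made for the study and are shown in its immunoblots, and the labels do not give which clone or how many clones the KO libraries came from. Nothing in the labels says whether the 3 libraries of a group came from separate cultures, so the p-values measure the spread between libraries, which may be technical.

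MICA, MICB and the ULBP proteins are stress-induced ligands of NKG2D, an activating receptor of NK cells and cytotoxic T cells. CD274 (PD-L1) and PDCD1LG2 (PD-L2) bind PD-1 and restrain T cells, and CD274 is a classical target of interferon signalling through IRF1 and the STAT factors. CD276 (B7-H3) is a B7 family member, PVR (CD155) binds both the activating receptor DNAM-1 and the inhibitory receptor TIGIT, and CD47 binds SIRPA on macrophages as a signal against phagocytosis. Neuroendocrine SCLC cells are known for low antigen presentation, and Notch activity moves them toward a non-neuroendocrine state.

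In the GRCh37 annotation the NKG2D ligands lie in 2 clusters of chromosome 6. MICA lies on the plus strand at chr6:31367561-31383092 and MICB at chr6:31462658-31478901, in the HLA class I region. On the same chromosome ULBP2 lies at chr6:150263150-150270371, ULBP1 at chr6:150285079-150294851 and, on the minus strand, ULBP3 at chr6:150382189-150390257. CD274 at chr9:5450503-5470566 and PDCD1LG2 at chr9:5510531-5571282 are neighbours on the plus strand of chromosome 9. CD276 lies at chr15:73976307-74006855, PVR at chr19:45147098-45169430 and, on the minus strand, CD47 at chr3:107761938-107810709. All are protein-coding genes, and each value is for the gene as a whole.

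The 250 bases before the start of 3 members are shown because CD274, MICA and MICB were read at higher levels with N1ICD or TAS1440 in several lines and because motif matches fell there. The sequences are from RefSeq (GRCh38.p14), in which 9 of the 10 human members were matched. The starts are those of RefSeq, and they were not compared with the gene starts of the GRCh37 annotation given above. Capitals mark matches, searched on both strands, to GAAANNGAA (an interferon-stimulated response element core), TTCNNNGAA (a STAT dimer site), TGANTCA (an AP-1 site), TGGGAA (an RBPJ core) or GAANNTTC (a heat shock element core). The CD274 window is chr9:5450292-5450541, the MICA window chr6:31403345-31403594 and the MICB window chr6:31497895-31498144, all on the plus strand.
CD274: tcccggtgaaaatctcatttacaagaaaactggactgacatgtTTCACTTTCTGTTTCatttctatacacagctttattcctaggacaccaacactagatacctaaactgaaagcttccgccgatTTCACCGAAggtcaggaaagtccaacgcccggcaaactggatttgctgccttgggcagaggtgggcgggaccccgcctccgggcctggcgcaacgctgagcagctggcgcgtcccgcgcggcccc
MICA: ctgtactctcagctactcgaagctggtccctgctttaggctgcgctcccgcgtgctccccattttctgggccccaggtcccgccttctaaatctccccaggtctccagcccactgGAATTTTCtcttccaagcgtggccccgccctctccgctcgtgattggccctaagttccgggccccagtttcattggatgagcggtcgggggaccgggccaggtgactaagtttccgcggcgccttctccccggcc
MICB: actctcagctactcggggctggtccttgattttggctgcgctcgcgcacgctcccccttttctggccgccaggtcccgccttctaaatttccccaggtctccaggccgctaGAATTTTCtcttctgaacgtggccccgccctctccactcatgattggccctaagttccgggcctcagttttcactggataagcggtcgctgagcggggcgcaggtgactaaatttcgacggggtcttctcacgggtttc
CD274 held 2 overlapping matches to the interferon element core on the minus strand, at bases -207 to -199 and -201 to -193 from the start, and 1 match to the STAT site at -125 to -117. MICA and MICB each held the heat shock element core, at -135 to -128 in MICA and -139 to -132 in MICB. Among 35116 RefSeq promoters of the same length the interferon core was held by 6.88%, the STAT site by 6.57%, the AP-1 site by 6.57%, the RBPJ core by 20.8% and the heat shock core by 5.78%. The windows of ULBP1, ULBP2, ULBP3, CD276, PVR and CD47 held none of the 5 letter patterns, which says only that these letters are absent from those windows.

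The labels were checked against their target genes and markers. NOTCH1 mRNA was higher with doxycycline in every N1ICD line, but the induced levels were unequal, at 4.26 to 5.56 in intact H82, 8.75 to 10.74 in H82 REST KO, 5.97 to 7.48 in H82 STING KO, 7.58 to 8.31 in H524 and 7.93 to 8.07 in H69. In COR-L88 NOTCH1 mRNA was 0.61 to 0.74 with DMSO, 1.99 to 2.79 with TAS1440, 6.71 to 6.75 with TAS1440 and GSI, and 2.82 to 4.93 with TAS1440 in the libraries labelled STING KO. STING1 mRNA in H82 cells with doxycycline was 1.27 to 2.04 in the libraries labelled STING KO and 1.07 to 1.17 in intact cells, so the mRNA level goes against the label there, although an mRNA level does not test a CRISPR edit. In COR-L88 with TAS1440 it was 0.96 to 1.16 in the libraries labelled STING KO against 2.03 to 2.54 in intact cells. REST mRNA was still read in induced H82 REST KO cells, at 4.95 to 5.89 against 6.13 to 6.48 in intact cells. Of the neuroendocrine markers tested with N1ICD or TAS1440, 6 of 6 were lower in H82 and 6 of 7 in each of H524, H69 and COR-L88. Beside this, limma called 50.3% of all tested genes in either direction in H82, 32.3% in H524, 82.3% in H69 and 57.7% in COR-L88. Of the leukocyte markers PTPRC and CD3E had group means of at most 0.27 and ITGAM of at most 1.11, in COR-L88 with TAS1440. Of 3 fibroblast markers PDGFRA had group means of at most 0.59, whereas with N1ICD the mean of LUM was 2.51 in H82, 2.64 in H524 and 5.41 in H69, and that of DCN was 3.74 in H69. The part of these markers in the ligand levels was not tested. The uninduced H69 vector line differed from its parent, with a mean NEUROD1 of 9.39 against 4.37. Libraries 23 (H524 N1ICD vector without doxycycline), 33 and 59 (H82 REST KO and STING KO with doxycycline) and 44 (COR-L88 STING KO with TAS1440) stood apart from their groups in values such as PDCD1LG2. They were picked without a formal rule for outliers, and calls that changed without them are given both ways.

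**Figure D1:**
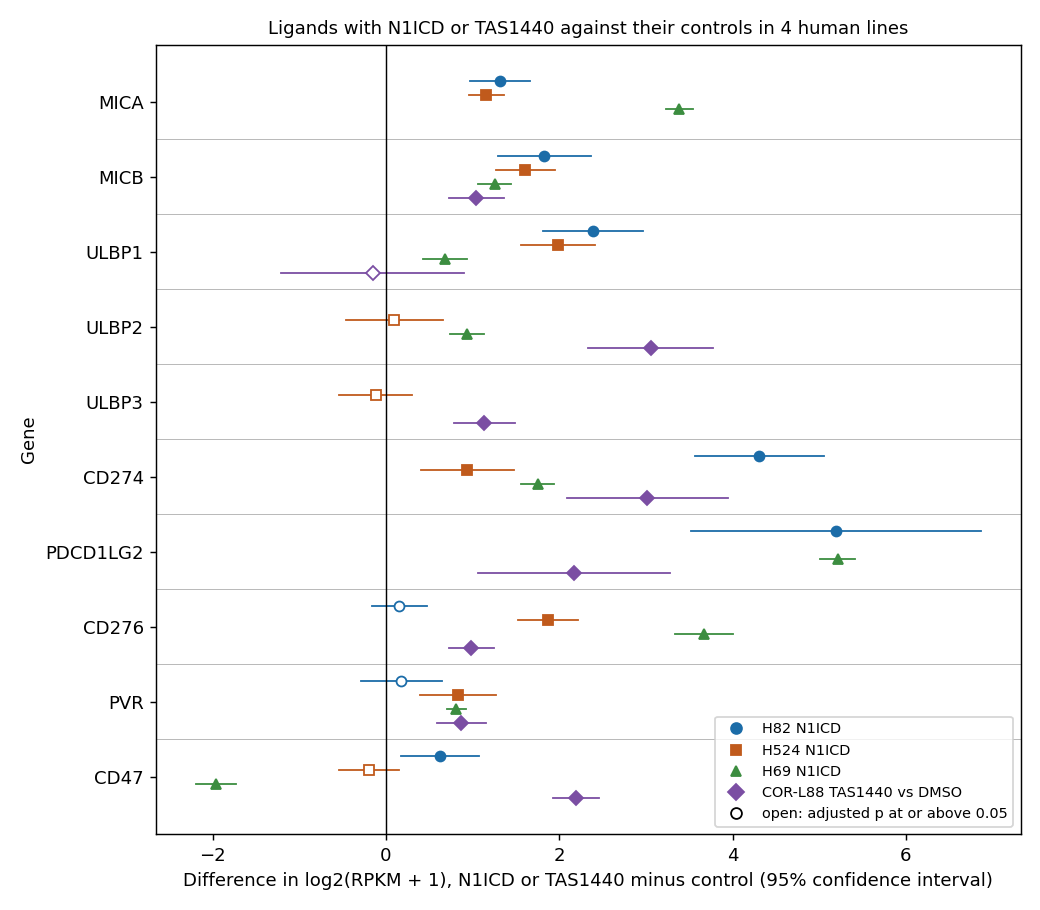
Difference in log2(RPKM + 1) between N1ICD or TAS1440 libraries and their controls for each tested human member, with 95% confidence intervals from limma, for N1ICD induction in H82, H524 and H69 and for TAS1440 against DMSO in COR-L88, with open symbols where the adjusted p was at or above 0.05. The controls of MICA in H524 and of PDCD1LG2 in H69 and COR-L88 are listed at 0, so those differences depend on the pseudocount. CD274 lies above 0 in all 4 lines, whereas CD47 lies at 2.19 in COR-L88 and at -1.97 in H69.

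Most of the tested ligands were higher with N1ICD or TAS1440 in each human line. A gene was tested where its level reached 1 in at least 3 libraries of the line, and called where limma gave an adjusted p below 0.05. With N1ICD in H82, 6 of the 8 tested members were called, all higher, and 50.3% of all tested genes were called. In H524 it was 6 of 9, all higher (32.3% of all genes), in H69 9 of 9, of which 8 were higher and CD47 lower (82.3%), and with TAS1440 against DMSO in COR-L88 8 of 9, all higher (57.7%). The median difference of the tested members was 1.57 in H82, 0.94 in H524, 1.25 in H69 and 1.13 in COR-L88, beside medians of 0.00, -0.02, 0.08 and 0.01 over all genes tested. Members below the filter, and so not tested, were ULBP2 and ULBP3 in H82, PDCD1LG2 in H524, ULBP3 in H69 and MICA in COR-L88. Some tested members, such as MICA in H524, passed the filter only through the N1ICD or TAS1440 group, so the counts and medians of tested members are a description.

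MICA, an NKG2D ligand, was at most 0.45 in the parental, uninduced and DMSO libraries. In H69 MICA was 3.35, 3.31 and 3.52 with doxycycline and 0.00, 0.03 and 0.00 without (adjusted p = 7.87e-10). In H82 it was 1.31, 1.72 and 1.09 against 0.02, 0.04 and 0.12 (difference 1.32, adjusted p = 3.59e-06). The induced and uninduced libraries did not overlap in either line, and every induced H69 library lay above every H82 library, REST KO and STING KO libraries included. In H524 MICA was 1.06, 1.15 and 1.26 with N1ICD (adjusted p = 4.22e-07) and was listed at 0 in all 12 other H524 libraries. In COR-L88 it stayed below the filter, at 0.77, 0.81 and 0.68 with TAS1440, 0.23, 0.23 and 0.19 with TAS1440 and GSI, and 0.00, 0.00 and 0.02 with DMSO, values that do not overlap. With TAS1440 in the cells labelled STING KO it was 0.00, 0.07 and 0.02. Without the filter, TAS1440 minus DMSO was 0.75 for MICA (adjusted p = 7.94e-09) and the response differed with the label by -0.72 (adjusted p = 5.21e-06). Of the 50-base words in MICA transcripts, 1.56% are also in MICB transcripts, so the values of the pair may share some reads.

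MICB, the second MIC ligand of NKG2D, was already read in resting COR-L88 and H69 but hardly in H82 or H524. In H82 it was 1.72, 2.50 and 1.66 with N1ICD against 0.06, 0.24 and 0.10 without (difference 1.83, adjusted p = 1.14e-05). In H524 it was 1.73, 1.95 and 2.04 against 0.04, 0.65 and 0.21 (difference 1.61, adjusted p = 2.85e-06). Starting from a higher level, MICB in H69 was 4.12, 4.13 and 4.21 against 2.77, 3.06 and 2.86 (difference 1.25, adjusted p = 1.10e-06). The groups did not overlap in any of these lines. COR-L88 went from 2.44, 2.39 and 2.12 with DMSO to 3.41, 3.48 and 3.20 with TAS1440, again without overlap (difference 1.04, adjusted p = 3.82e-05).

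The 3 ULBP genes, which encode NKG2D ligands outside the HLA region, moved in different lines. ULBP1 was higher with N1ICD in H82, at 3.04, 2.89 and 2.96 against 0.40, 0.64 and 0.69 (difference 2.39, adjusted p = 1.20e-06). In H524 it was 3.23, 3.21 and 3.34 against 1.14, 1.35 and 1.34 (difference 1.98, adjusted p = 3.07e-06). Induced libraries were higher without overlap in both lines. The parental libraries lay between the uninduced and induced ones, at 1.02 to 2.21 in H82 and 2.18 to 2.41 in H524, so induced cells differed less from them. H69 gave a difference of 0.68 (adjusted p = 0.000449), from 0.60, 0.31 and 0.50 to 1.24, 1.20 and 1.00, which overlaps with the parental libraries at 1.24, 1.08 and 1.38. In COR-L88 ULBP1 varied within each group, at 1.54, 2.70 and 2.74 with TAS1440 and 1.35, 2.90 and 3.18 with DMSO, and the difference of -0.15 had a 95% interval from -1.21 to 0.91.

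ULBP2 and ULBP3 responded in COR-L88, where ULBP1 did not pass the test. ULBP2 was 4.11, 4.16 and 3.63 with TAS1440 against 0.98, 0.68 and 1.07 with DMSO (difference 3.05, adjusted p = 4.17e-06). ULBP3 was 2.00, 1.69 and 1.29 against 0.48, 0.51 and 0.59 (difference 1.13, adjusted p = 5.39e-05). Neither pair of groups overlapped. In H524 neither passed the test with N1ICD, with differences of 0.09 for ULBP2 (95% interval -0.47 to 0.65) and -0.12 for ULBP3 (-0.54 to 0.30). In H69 ULBP2 was 1.24, 1.19 and 1.38 against 0.29, 0.49 and 0.24 (difference 0.93, adjusted p = 9.36e-06), and the untested ULBP3 was 1.22, 1.19 and 0.89 against 0.03, 0.00 and 0.03. RAET1L, a close relative that shares 29.7% of the 50-base words of ULBP2, had a mean of 4.22 with TAS1440 and 0.37 with DMSO in COR-L88, so reads may have been split between ULBP2 and RAET1L.

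**Figure D2:**
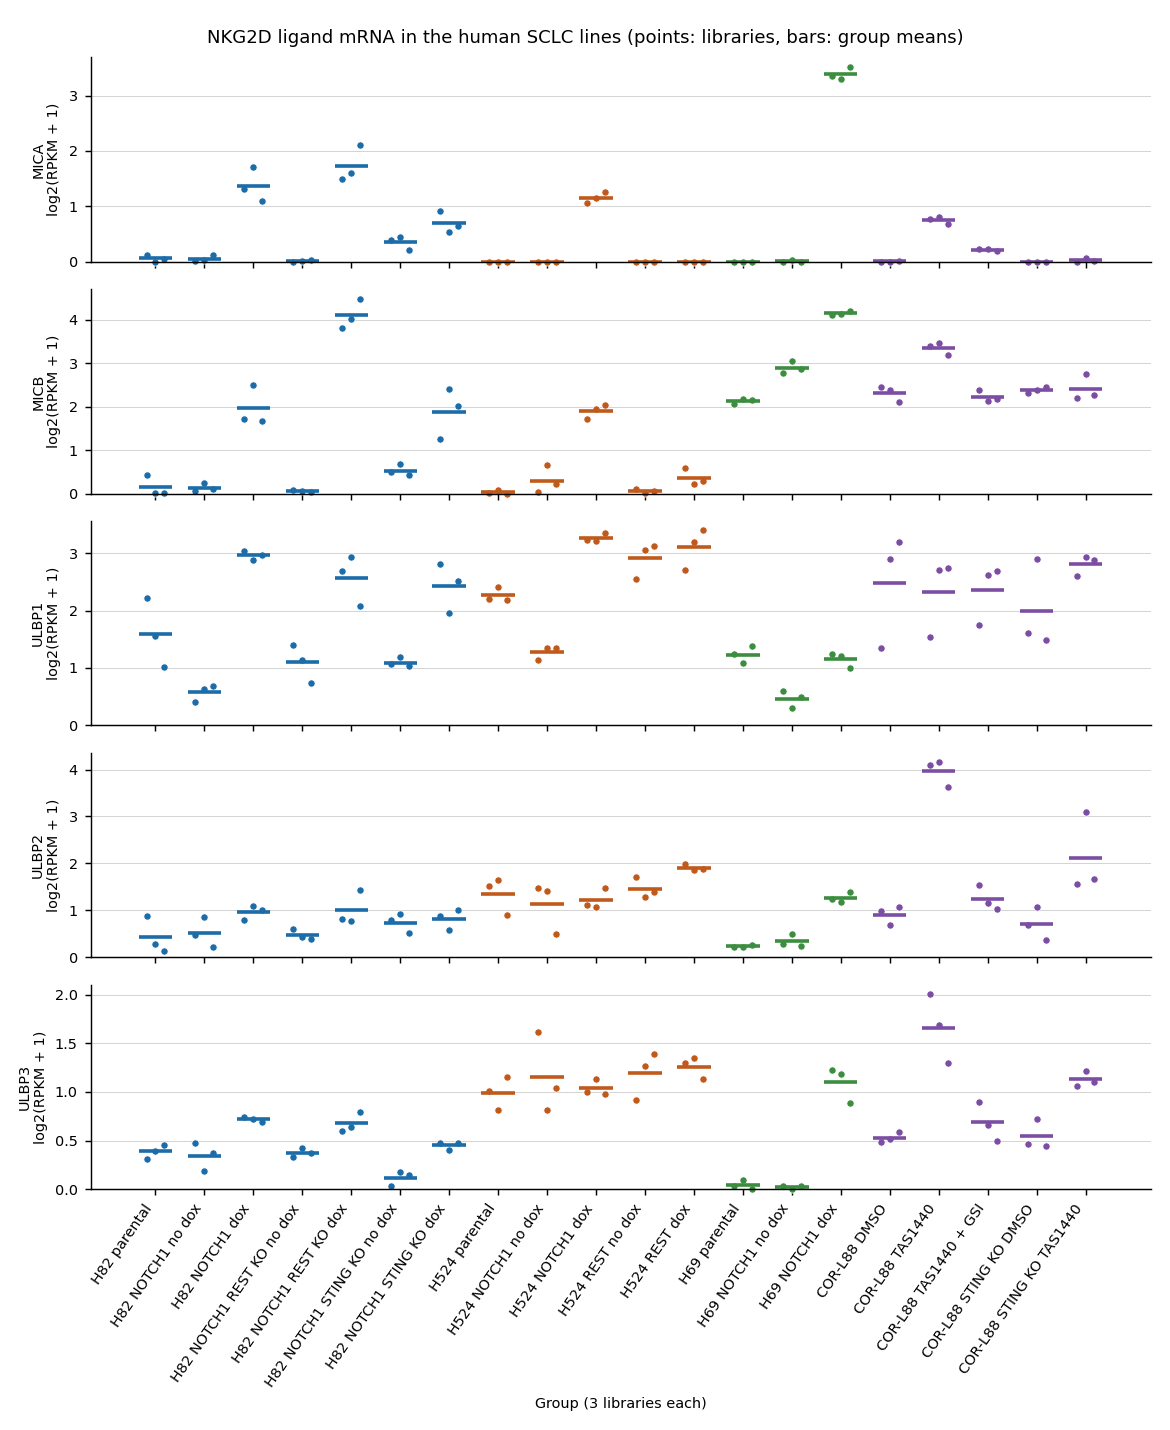
Levels of the 5 NKG2D ligand genes, as log2(RPKM + 1), in each of the 60 human libraries by group. Each point is a library and each bar a group mean. MICA reaches 3.52 in induced H69, MICB reaches 4.49 in induced H82 REST KO cells and ULBP2 reaches 4.16 in COR-L88 with TAS1440.

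CD274, which encodes PD-L1, was higher with N1ICD or TAS1440 in all 4 human lines. In H82 it was 5.39, 5.33 and 4.58 with N1ICD against 0.60, 0.94 and 0.84 without (difference 4.31, 95% interval 3.56 to 5.05, adjusted p = 1.71e-08). In COR-L88 it was 4.88, 3.82 and 3.01 with TAS1440 against 0.82, 1.07 and 0.77 with DMSO (difference 3.01, adjusted p = 5.00e-05). In neither line did the groups overlap, and the TAS1440 libraries spread more widely than the induced H82 libraries. H69 gave 1.69, 1.91 and 1.87 against 0.10, 0.12 and 0.00 (difference 1.75, adjusted p = 1.24e-07). H524 gave 1.46, 1.08 and 1.27 against 0.18, 0.68 and 0.13 (difference 0.94, adjusted p = 0.00995, and 1.11 without library 23), and the induced libraries overlapped with the parental ones at 1.41, 0.54 and 0.98.

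PDCD1LG2, the gene of PD-L2, was listed at 0 in 37 of the 60 human libraries. Its smallest value above 0 was 0.662 RPKM, against 0.0116 RPKM for MICA, so its low values are coarse. In H82 it was 5.72, 6.37 and 5.42 with N1ICD against 0.00, 0.94 and 0.98 without (difference 5.20, adjusted p = 3.12e-05). In H69 it was 5.19, 5.04 and 5.40 with N1ICD (adjusted p = 3.27e-10) and listed at 0 in all 6 other H69 libraries. The induced libraries of intact H82 and of H69 lay above every uninduced library of the human table. COR-L88 gave 1.90, 2.82 and 1.78 with TAS1440 (adjusted p = 0.00266) and was listed at 0 in all 3 DMSO libraries. In H524 the untested values were 1.59, 0.86 and 0.73 with N1ICD and 0.00, 1.55 and 0.00 without, where the 1.55 is library 23.

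**Figure D3:**
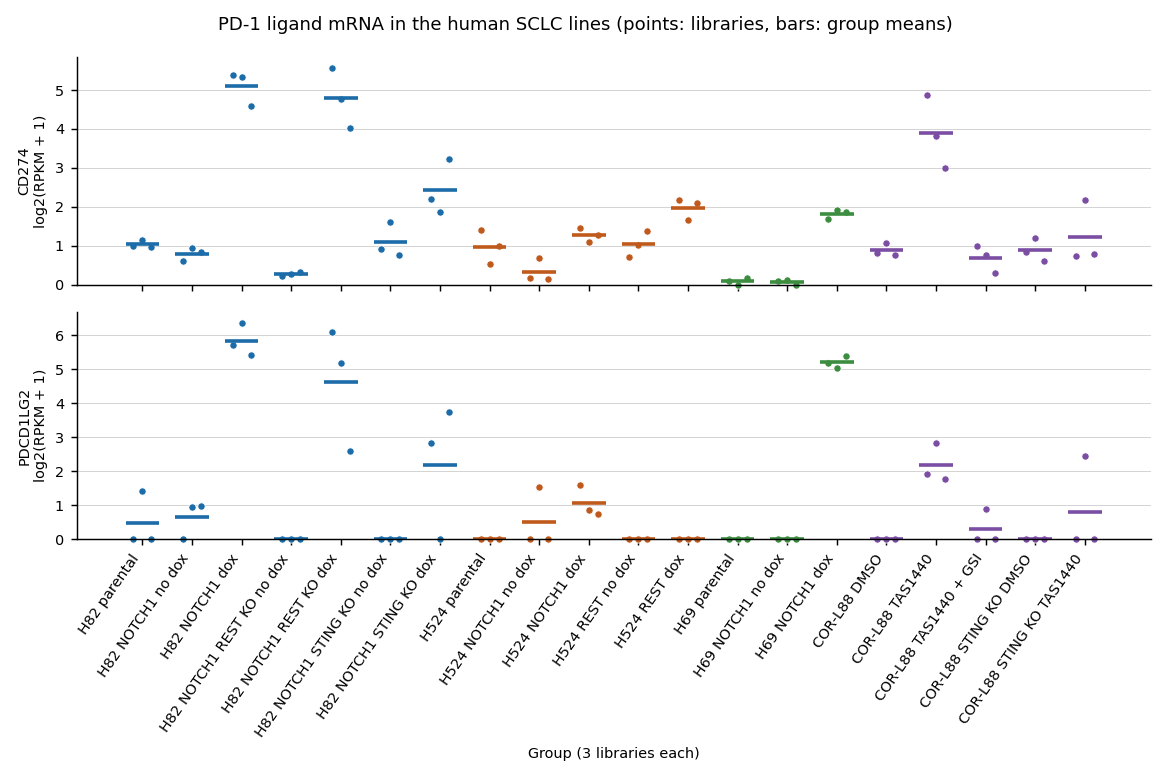
Levels of CD274 (PD-L1) and PDCD1LG2 (PD-L2), as log2(RPKM + 1), in each of the 60 human libraries by group. Each point is a library and each bar a group mean. In H82 with N1ICD the libraries reach 5.39 for CD274 and 6.37 for PDCD1LG2, and in the induced libraries labelled STING KO they reach 3.23 and 3.73.

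CD276, the gene of B7-H3, was abundant in resting H82, H524 and COR-L88 but low in H69. In H69 it was 6.05, 6.00 and 6.01 with N1ICD against 2.66, 2.06 and 2.33 without (difference 3.67, adjusted p = 4.19e-08), and 0.89, 1.20 and 0.95 in the parental line. In H524 it was 5.95, 6.43 and 6.11 against 4.19, 4.37 and 4.31 (difference 1.87, adjusted p = 7.82e-07). COR-L88 went from 3.90, 3.95 and 4.05 to 4.95, 4.94 and 4.96 with TAS1440 (difference 0.99, adjusted p = 1.22e-05). None of these groups overlapped. In H82 CD276 was 4.62, 4.34 and 4.48 against 4.38, 4.30 and 4.28, which overlap, and the difference of 0.16 had a 95% interval from -0.16 to 0.47.

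PVR, the ligand of DNAM-1 and TIGIT, was read in all 60 human libraries, between 2.97 and 4.49. In H69 the libraries were 4.49, 4.42 and 4.44 with N1ICD and 3.66, 3.64 and 3.62 without (difference 0.81, adjusted p = 6.20e-07). It was also higher in H524 by 0.83 (adjusted p = 0.00628) and in COR-L88 by 0.87 (adjusted p = 7.27e-05), each without overlap. In H82 the libraries were 4.27, 3.68 and 4.15 against 3.89, 3.92 and 3.74, which overlap (difference 0.18, 95% interval -0.29 to 0.65).

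CD47, the ligand of SIRPA, went opposite ways in COR-L88 and H69. In COR-L88 it was 4.06, 3.85 and 3.98 with TAS1440 against 1.88, 1.68 and 1.75 with DMSO (difference 2.19, adjusted p = 1.43e-08). In H69 it was 1.53, 1.50 and 1.61 with N1ICD against 3.33, 3.69 and 3.52 without (difference -1.97, adjusted p = 2.03e-07). The libraries did not overlap in either line, and the lowest CD47 value of the human table was in induced H69. H82 gave 2.50, 3.26 and 2.58 against 2.53, 2.07 and 1.87, which overlap (difference 0.63, adjusted p = 0.0212). That call was lost without any of libraries 5, 6 and 8, with differences of 0.39 to 0.58 (adjusted p from 0.0636 to 0.129). In H524 the difference was -0.20 with a 95% interval from -0.54 to 0.15.

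**Figure D4:**
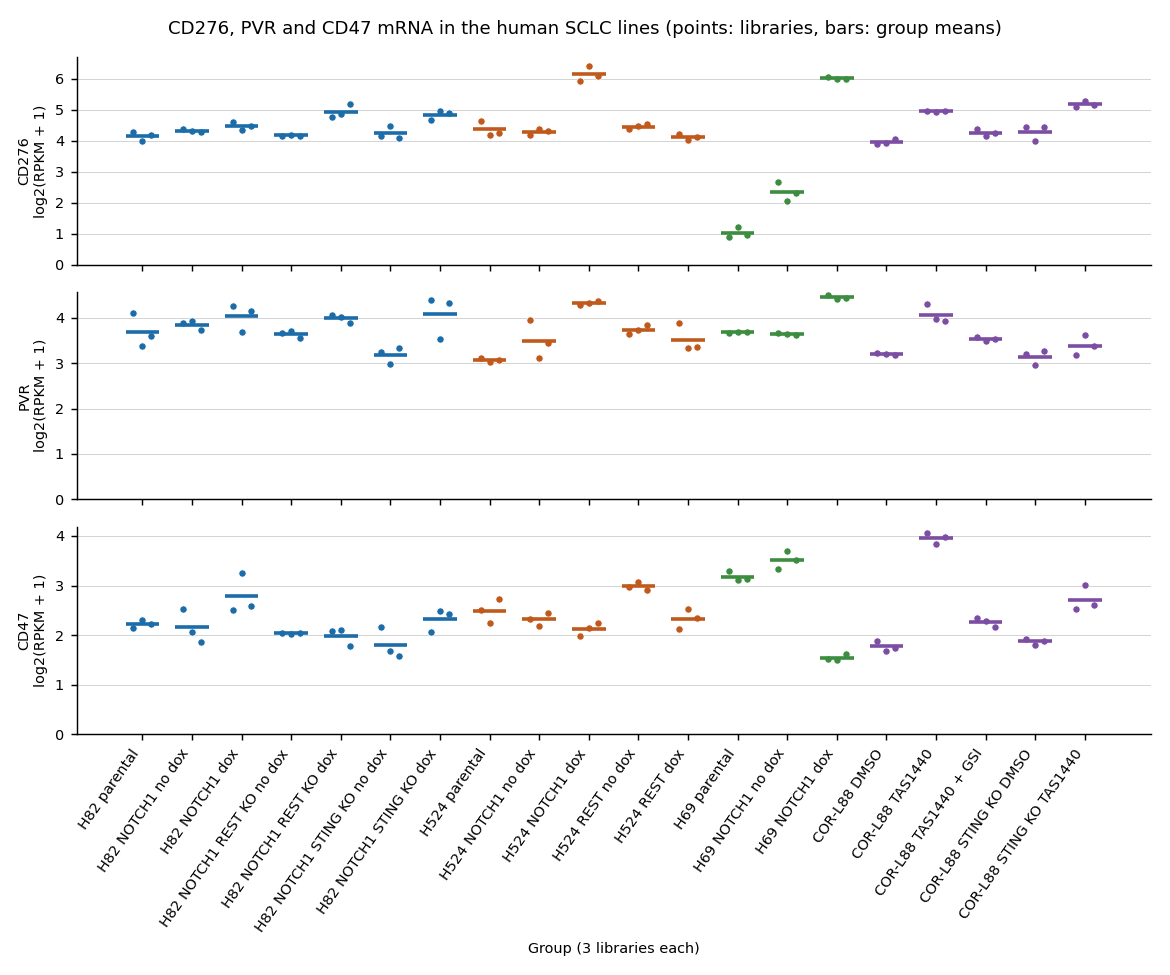
Levels of CD276, PVR and CD47, as log2(RPKM + 1), in each of the 60 human libraries by group. Each point is a library and each bar a group mean. CD276 runs from 0.89 in parental H69 to 6.43 in induced H524, PVR stays between 2.97 and 4.49, and CD47 runs from 1.50 in induced H69 to 4.06 in COR-L88 with TAS1440.

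The gamma-secretase inhibitor was added to block Notch cleavage, and the study cautions that such drugs also act on other membrane proteins. Different inhibitors were used in COR-L88 and KP1. Levels of 8 of the 9 tested members in COR-L88 were lower when GSI was added to TAS1440 (46.7% of all genes called), ULBP1 being the exception. With both drugs against DMSO, CD47 was the 1 member called, higher by 0.49 (adjusted p = 0.0101, 24.5% of all genes). These comparisons share libraries. CD274 was 1.00, 0.77 and 0.30 with both drugs, below every library with TAS1440 alone (difference 3.21, adjusted p = 5.74e-05) and overlapping with DMSO. ULBP2 was 1.53, 1.16 and 1.03 with both drugs, also below all TAS1440 libraries (difference 2.72, adjusted p = 2.79e-05). CD47 at 2.34, 2.29 and 2.16 lay between the DMSO and TAS1440 libraries without overlap. Beside this, NOTCH1 mRNA was highest with both drugs, as given above, and VIM and YAP1 had means of 6.38 and 4.86 with both drugs and 1.76 and 1.08 with DMSO, against 7.57 and 6.21 with TAS1440 alone, and their part in the ligand levels was not tested.

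REST, a repressor of neuronal genes that Notch induces, was altered by KO in H82 and by overexpression in H524. In H82 REST KO cells 6 of 8 tested members were called with N1ICD, all higher (52.2% of all genes), and the response differed from that of intact cells for 1 of 8, MICB (16.6%). MICB was 3.81, 4.02 and 4.49 in induced REST KO cells against 1.72, 2.50 and 1.66 in induced intact cells (difference 2.14, adjusted p = 3.95e-06). The groups did not overlap, and the MICB response was larger in REST KO cells by 2.21 (adjusted p = 0.000304), or by 2.02 without library 33. Between induced REST KO and intact cells 3 of 8 members were called (38.4% of all genes), the others being CD276 (difference 0.46, adjusted p = 0.0219) and CD47 (difference -0.79, adjusted p = 0.00722). The CD276 call was lost without library 8 or 33 (adjusted p from 0.0755 to 0.104) and the CD47 call without library 8 (difference -0.56, adjusted p = 0.0515). NOTCH1 mRNA was also higher in the induced REST KO libraries, as given above, and its part in the MICB difference was not tested.

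The PD-1 ligand genes responded in REST KO cells with a wide spread between libraries. CD274 was 5.57, 4.77 and 4.02 with doxycycline against 0.23, 0.27 and 0.31 without (difference 4.52, adjusted p = 6.23e-09), overlapping with induced intact cells. PDCD1LG2 was 6.11, 5.20 and 2.59 with doxycycline, the last being library 33, and listed at 0 in all 3 uninduced libraries (adjusted p = 9.34e-05). Against induced intact cells the PDCD1LG2 difference was -1.20 (95% interval -2.88 to 0.47), and -0.18 without library 33. Without doxycycline 0 of 8 members differed between REST KO and intact cells by limma (15.2% of all genes), and 0 had an unadjusted p below 0.05.

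With REST overexpression in H524 1 member passed the test. By limma 1 of 9 was called, CD47, lower (2.83% of all genes), at 2.13, 2.52 and 2.34 against 2.98, 3.07 and 2.92 (difference -0.66, adjusted p = 0.0469). The groups did not overlap, but the call was lost when any of the 6 libraries was left out (adjusted p from 0.066 to 0.18). MICA was listed at 0 in all 6 libraries. CD274 was 2.18, 1.65 and 2.09 with REST against 0.70, 1.02 and 1.38 without, a difference of 0.94 without overlap that missed the threshold (adjusted p = 0.0616).

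Induced N1ICD and induced REST cells of H524 differed in 6 of 9 members (42.8% of all genes). MICA, MICB (difference 1.54), CD276 (2.04) and PVR (0.81) were higher with N1ICD. CD274 (-0.70, adjusted p = 0.0349) and ULBP2 (-0.69, adjusted p = 0.0473) were lower. The CD274 call was lost without any of libraries 26, 27, 37 and 39 (adjusted p from 0.0783 to 0.119), and the ULBP2 call without any of libraries 25, 26, 37, 38 and 39 (0.0798 to 0.138). The doxycycline responses of the 2 vectors differed for 5 of 9 members (19.1% of all genes), namely MICA, MICB, ULBP1, CD276 and PVR, all larger with N1ICD. Between induced N1ICD and induced REST cells ULBP1 did not pass limma's test (means 3.26 and 3.10, difference 0.16, adjusted p = 0.539). Without doxycycline the ULBP1 means were 1.28 in the N1ICD vector line and 2.91 in the REST vector line. The PVR call was lost without any of libraries 27, 36, 38 and 39 (adjusted p from 0.0517 to 0.0577). For CD274 the responses differed by 0.00 (95% interval -0.75 to 0.76).

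STING, the adaptor that carries cytosolic DNA signals to interferon genes, was the target of the other KO label. In the H82 cells labelled STING KO 6 of 8 members were called with N1ICD, all higher (37.8% of all genes). CD274 was 2.21, 1.86 and 3.23 there, against 5.39, 5.33 and 4.58 in induced intact cells (difference -2.67, adjusted p = 2.63e-05). The groups did not overlap, whereas without doxycycline they did, at 0.91, 1.60 and 0.76 with the STING KO label and 0.60, 0.94 and 0.84 in intact cells. In induced cells 3 of 8 members were lower with the label (39.2% of all genes). The others were PDCD1LG2, at 2.84, 0.00 and 3.73 against 5.72, 6.37 and 5.42 (difference -3.65, adjusted p = 0.00166), and MICA, at 0.91, 0.54 and 0.64 against 1.31, 1.72 and 1.09 (difference -0.68, adjusted p = 0.00395). Neither gene overlapped between the groups. Without library 59, in which PDCD1LG2 was listed at 0, the differences were -2.38 for CD274 (adjusted p = 0.00024), -2.55 for PDCD1LG2 (0.00988) and -0.60 for MICA (0.0203). The MICB difference was -0.07 with a 95% interval from -0.61 to 0.47.

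The H82 response itself differed with the STING KO label for 2 of 8 members (9.26% of all genes), CD274 by -2.96 (adjusted p = 0.00106) and MICA by -0.97 (adjusted p = 0.0145). MICA without doxycycline was low but already higher with the label, at 0.21 to 0.45 against 0.02 to 0.12, a difference that limma did not call. Without library 59 the PVR response differed too, by 0.99 (adjusted p = 0.0407), against 0.72 with it (adjusted p = 0.164). For PDCD1LG2 the responses differed by -3.01 (limma adjusted p = 0.103), by -3.78 without library 60 (adjusted p = 0.0451) and by -1.91 without library 59 (adjusted p = 0.245). The PDCD1LG2 response of the labelled STING KO cells (2.19, adjusted p = 0.0373) had overlapping libraries and was lost without any of libraries 55, 56, 57, 58 and 60 (adjusted p from 0.0778 to 0.201), whereas without library 59 it was 3.29 (adjusted p = 0.00135). Without doxycycline 1 of 8 members differed (34.6% of all genes), PVR, at 3.26, 2.98 and 3.34 against 3.89, 3.92 and 3.74 (difference -0.66, adjusted p = 0.0277), in a comparison where the median of all genes was -0.11. That PVR call was lost without any of libraries 4, 5, 55 and 56 (adjusted p from 0.0558 to 0.112). The study's immunoblots show single-cell STING1 KO clones of H82, but the labels do not link those clones to these libraries. Since STING1 mRNA was not lower in the induced libraries labelled STING KO, the direction of these ligand differences is tied to the label. Beside them, induced cells labelled STING KO had higher NOTCH1 mRNA, as given above, and means of 0.23 for LUM against 2.51 in intact cells, 6.50 for AXL against 7.87 and 2.98 for CD44 against 4.61, and their part was not tested.

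In COR-L88 cells labelled STING KO 4 of 9 members were called with TAS1440, all higher (43.3% of all genes), namely ULBP2, ULBP3, CD276 and CD47. CD274 was 0.75, 2.18 and 0.78 there, the 2.18 being library 44, against 4.88, 3.82 and 3.01 in intact cells (difference -2.67, adjusted p = 0.000789, and -3.14 without library 44). The groups did not overlap. With TAS1440 6 of 9 members were lower with the label (27.1% of all genes), namely MICB, ULBP2, ULBP3, CD274, PVR and CD47. MICB was 2.21, 2.75 and 2.28 against 3.41, 3.48 and 3.20 (difference -0.95, adjusted p = 0.00056), overlapping with the DMSO libraries of the labelled cells at 2.31, 2.38 and 2.46. CD47 was 2.52, 3.02 and 2.61 against 4.06, 3.85 and 3.98 (difference -1.25, adjusted p = 2.61e-05), without overlap. The ULBP3 difference (-0.53, adjusted p = 0.0289) was lost without any of libraries 13, 14, 43 and 45 (adjusted p from 0.0679 to 0.117). PDCD1LG2, at 0.00, 2.44 and 0.00 against 1.90, 2.82 and 1.78, was called when library 44 was left out (adjusted p = 0.000242) and not with it (0.0663).

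In DMSO 0 of 9 members differed between labelled STING KO and intact COR-L88 cells by limma (5.41% of all genes), and 1, CD276, had an unadjusted p below 0.05. The CD276 difference passed without library 41 (adjusted p = 0.011). The TAS1440 response differed with the label for 4 of 9 members (7.93% of all genes). These were CD274 (-2.66, adjusted p = 0.02), ULBP2 (-1.66, adjusted p = 0.0477), CD47 (-1.35, adjusted p = 0.00126) and MICB (-1.01, adjusted p = 0.012). The ULBP2 call was lost in 10 of 12 fits with 1 library left out (adjusted p from 0.0566 to 0.122) and the CD274 call without library 43 or 45 (0.0512 to 0.0583), whereas without library 44 the differences were -2.15 and -3.13. PDCD1LG2 and PVR passed without library 44 as well, at -2.17 (adjusted p = 0.00442) and -0.74 (adjusted p = 0.0164), against -1.36 (adjusted p = 0.266) and -0.63 (adjusted p = 0.0528) with it. Beside these, the labelled STING KO cells with TAS1440 had higher NOTCH1 mRNA without overlap, as given above, and a mean AXL of 0.00 against 1.55 in intact cells and CD44 of 0.02 against 3.77. Their part in the ligand differences was not tested, and in bulk RNA fewer cells that express a gene and less RNA per cell cannot be told apart.

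Vector lines without induction were compared with their parents. In H82 1 of 8 members differed (13.7% of all genes), ULBP1, at 0.40, 0.64 and 0.69 against 2.21, 1.56 and 1.02 (difference -1.02, adjusted p = 0.0191), a call lost without library 1 or 5 (adjusted p from 0.0545 to 0.0829). In the H524 N1ICD vector line it was again 1 of 9 (26.6% of all genes), ULBP1, at 1.14, 1.35 and 1.34 against 2.20, 2.41 and 2.18 (difference -0.99, adjusted p = 0.00304). Without library 23 CD274 (-0.82, adjusted p = 0.0304) and PVR (0.62, adjusted p = 0.0292) passed there as well, and CD274 also without library 20, against -0.65 and 0.42 with all libraries (adjusted p = 0.0696 and 0.139). ULBP1 did not overlap between the groups in either line. The H524 REST vector line differed in 0 of 9 members by limma (0.3% of all genes), and 3, ULBP1, PVR and CD47, had an unadjusted p below 0.05. In H69 4 of 9 differed (27.4% of all genes), with ULBP1 lower (difference -0.77, adjusted p = 0.00152) and MICB (0.77), CD276 (1.33) and CD47 (0.34) higher. The CD47 call was lost without any of libraries 47, 48, 50 and 51 (adjusted p from 0.0866 to 0.116). ULBP1 was lower in all 3 uninduced N1ICD vector lines than in their parents. NOTCH1 mRNA in these uninduced libraries was 0.88 to 1.45 in H82 and 0.79 to 1.52 in H524, against 0.01 to 0.04 and 0.23 to 0.73 in the parents. In H69 NOTCH1 was 0.38 to 0.39 against 0.58 to 0.62 in the parent. The part of NOTCH1 in the differences from the parents was not tested.

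The N1ICD response was compared between lines in a single fit of all 60 human libraries. H69 and H82 differed in 7 of 10 members (60.6% of all genes), H524 and H82 in 6 of 10 (32.4%) and H69 and H524 in 6 of 10 (54.8%). The CD274 response was smaller in H69 than in H82 (H69 minus H82 -2.56, adjusted p = 1.97e-05) and smaller in H524 than in H82 (-3.37, adjusted p = 4.59e-07). PDCD1LG2 responded less in H524 than in H82 (-4.65, adjusted p = 2.91e-05) and more in H69 than in H524 (4.67, adjusted p = 1.15e-05), while H69 minus H82 was 0.02 (95% interval -1.71 to 1.75).

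Among the other members, CD276 responded more in H69 than in H82 by 3.51 (adjusted p = 4.30e-20) and MICA by 2.07 (adjusted p = 2.20e-16). For the RPKM sum of MICA and MICB the latter difference was -0.39 (adjusted p = 0.189), the opposite sign. CD47 differed by -2.59 between H69 and H82 (adjusted p = 3.67e-13) and by -1.77 between H69 and H524 (adjusted p = 1.34e-08). The MICB responses did not pass the test for any pair of lines, with differences of -0.58, -0.22 and -0.35. Between H69 and H82 the MICB difference (adjusted p = 0.0635) passed without library 7 (-0.69, adjusted p = 0.0348) or 9 (-0.72, adjusted p = 0.0266). Between H69 and H524 the ULBP2 difference (0.84, adjusted p = 0.0527) passed without library 24 (1.16, adjusted p = 0.00815) or 27 (0.97, adjusted p = 0.0371). Between H524 and H82 the PVR call (0.66) was lost in 8 of 12 fits with 1 library left out, being 0.46 without library 23, and the ULBP3 call (-0.49) in 8 of 12, and between H69 and H82 the PVR call (0.63) was lost without library 5 or 8. The induced NOTCH1 levels given above also differed between lines, and their part was not tested.

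In mouse KP1 cells Pvr and Cd47 were higher with TAS1440, and hardly any PD-1 ligand mRNA was read. Pdcd1lg2 was listed at 0 in all 9 libraries, and Cd274 was 0.24, 0.44 and 0.08 with TAS1440 and 0.10, 0.10 and 0.06 with DMSO, below the filter. Of the 3 tested members 2 were higher with TAS1440 than with DMSO (36.7% of all genes), 2 were higher than with TAS1440 and GSI (32% of all genes), and 0 differed between TAS1440 with GSI and DMSO by limma (1.97% of all genes), where 0 had an unadjusted p below 0.05. Because Pvr reached 1 only in the TAS1440 libraries and in a library with both drugs (1.04), these counts are a description. Pvr, on the minus strand at chr7:19903578-19921160 of GRCm38, was 1.80, 2.69 and 1.64 with TAS1440, 0.55, 0.53 and 1.04 with TAS1440 and GSI, and 0.22, 0.16 and 0.10 with DMSO (TAS1440 minus DMSO 1.89, adjusted p = 0.000414). Its 3 groups did not overlap. Cd47, at chr16:49800533-49915010, was 2.43, 2.07 and 2.14 with TAS1440, 0.99, 1.05 and 1.12 with both drugs and 1.08, 1.12 and 1.09 with DMSO (TAS1440 minus DMSO 1.11, adjusted p = 0.000122). Only the last 2 of these groups overlapped. Cd276 was 3.48, 2.79 and 3.30 with TAS1440 and 2.55, 2.64 and 2.80 with DMSO, which overlap (difference 0.53, adjusted p = 0.0935, and 0.0253 without library 5). Sting1 mRNA was 1.67 to 1.86 with TAS1440 and 1.58 to 2.27 with DMSO, which overlap as well.

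**Figure D5:**
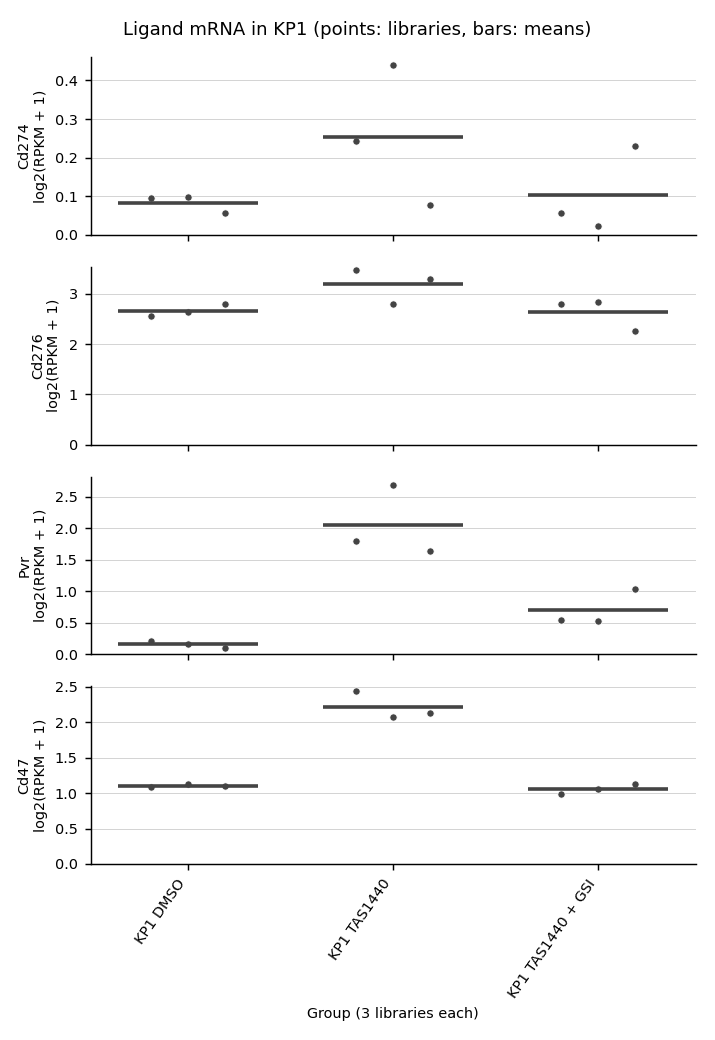
Levels of the mouse ligand genes, as log2(RPKM + 1), in the 9 KP1 libraries by treatment. Each point is a library and each bar a group mean. Pvr reaches 2.69 and Cd47 2.43 with TAS1440, and Cd274 stays at or below 0.44 in all groups.

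Other ligands and regulators of the same pathways were counted from wider lists, shown here for N1ICD in H82, H524 and H69 and for TAS1440 against DMSO in COR-L88. Listed genes that were low in the controls may have passed the filter only through the N1ICD or TAS1440 group. The counts and medians of all these lists are therefore a description. The shares of all genes called in either direction, against which these counts are to be read, were 50.3%, 32.3%, 82.3% and 57.7%. Of 15 further NK ligands 6 of 11, 4 of 9, 7 of 11 and 8 of 10 tested were higher in that order, and 1 was lower in H82 and 2 in H69, so that 9 of 11 were called in H69. Their median differences were 0.96, 0.16, 1.62 and 1.59. ICAM1, the adhesion ligand of LFA-1, went from a mean of 0.93 to 6.05 in COR-L88 (difference 5.12, adjusted p = 2.85e-08) and from 3.40 to 6.77 in H82 (3.38, adjusted p = 6.98e-06). NECTIN2, a second DNAM-1 ligand beside PVR, was higher in H524 by 3.01 (adjusted p = 0.000412). PDGFD, a ligand of the NK receptor NKp44, was higher in H82 (difference 3.50) and lower in H69 (difference -3.68, adjusted p = 2.95e-07).

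Of 18 further B7 and co-signalling ligands 7 of 10, 4 of 7, 7 of 8 and 3 of 4 were higher in the same order and 0 were lower, beside the same shares of 50.3%, 32.3%, 82.3% and 57.7% of all genes, with medians of 1.07, 0.71, 2.00 and 1.66. LGALS3, a galectin that binds LAG3, was higher in COR-L88 by 4.49 (adjusted p = 2.59e-09). Of 10 regulators of PD-L1, such as interferon gamma receptor, JAK and STAT genes, 5, 6, 7 and 9 were higher and 2 were lower in H69, with medians of 0.78, 0.65, 0.69 and 0.62. IRF1, which binds the interferon element, was higher in H524 by 3.20 (adjusted p = 3.45e-08). With the STING KO label 7 of these 10 were lower in induced H82 (39.2% of all genes called), median -0.91 beside -0.10 for all genes, and 6 in COR-L88 with TAS1440 (27.1% of all genes called), median -0.41 beside -0.07. Without doxycycline 4 of the 10 were already lower in H82 (median -0.16, 34.6% of all genes called), and the response to N1ICD differed with the label for 3 (median -0.24, 9.26% of all genes). In COR-L88 0 were lower with DMSO (5.41% of all genes called), and the TAS1440 response differed for 0 by limma (median -0.32, 7.93% of all genes called). In that order 1, CMTM4, and 3, IFNGR1, JAK1 and STAT3, had an unadjusted p below 0.05. CMTM6, which stabilises PD-L1, was among those lower in induced H82, at a mean of 3.19 against 4.79 (difference -1.60, adjusted p = 1.72e-05).

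Of 4 genes of the CD47 axis 1 of 3, 1 of 4, 2 of 4 and 3 of 3 tested were higher, and 1 was lower in H82 and 2 in H69, beside 50.3%, 32.3%, 82.3% and 57.7% of all genes called, with medians of -0.40, 0.16, 0.52 and 0.92. THBS1, the gene of thrombospondin, a secreted ligand of CD47, was higher in every line, by 6.33 in H82, 3.92 in H524, 6.00 in H69 and 5.71 in COR-L88. Its mouse ortholog Thbs1 was higher in KP1 by 6.24 (adjusted p = 5.84e-06). SIRPA, the CD47 receptor, was lower in H69 (difference -1.61, adjusted p = 1.11e-06). Of 4 genes that act in MICA shedding 1, 0, 4 and 3 were higher, and 2 were lower in H82, ADAM10 (-0.70) and PDIA6 (-0.92), beside the same shares of all genes, with medians of -0.19, 0.20, 1.17 and 0.98. MMP14, a membrane protease, was higher in H69 by 5.86 (adjusted p = 1.36e-10), and in COR-L88 with TAS1440 it was lower with the STING KO label (difference -2.46, adjusted p = 1.40e-05).

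Over the means of the 20 human groups some members followed each other, which is a description, since groups of a line share cells. The highest Pearson correlations among members were 0.87 for MICA with PDCD1LG2, 0.85 for ULBP2 with ULBP3 and 0.82 for CD274 with PDCD1LG2, and the lowest was -0.41 for CD276 with CD47. Among 15888 genes the patterns most like CD274 were those of RTP4 (0.93) and FLVCR2 (0.93), and those most like PDCD1LG2 were NEXN (0.97) and LINC00702 (0.97). The pattern most like MICA was that of DES (0.97), that most like ULBP2 was FLT3 (0.90) and that most like CD47 was PROKR1 (0.88).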

How the data were processed

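Bulk polyA RNA-seq was analysed from 60 human and 9 mouse libraries, grouped by the titles given to them, with 3 libraries per group. Per the study's methods and the submitters' notes the authors trimmed reads with cutadapt, aligned them with STAR (hg19, and mm10 per the labels), quantified genes with RSEM, scaled counts by TMM in edgeR and deposited the RPKM values on a log2 scale, separately for each species. The pseudocount of 1 was inferred from the floor of 0. Absolute read depth is unknown from these values, and no interval for counting error could be given. The spacing of low values put the depth of the human libraries between 0.698 and 1.52 times their median, and that of the KP1 libraries between 0.872 and 1.07 times. How RSEM split reads between related genes cannot be read from the values.

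Each line was fitted on all its groups with limma 3.58.1 (R 4.3.3, lmFit and eBayes with a variance trend) on the deposited log2 values, keeping genes at 1 or more in at least 3 libraries. Where the fit holds all 60 human libraries, differences between responses of lines were tested. The Benjamini-Hochberg adjustment ran over every tested gene, and a gene was called at an adjusted p below 0.05, in 31 comparisons, several of which share control libraries. The study's own test of read counts, limma voom, was replaced by this one because the values are not counts. The code was tested on simulated data, and no pair of libraries held the same values. Values of some marker genes are not reported here. The members and lists were chosen with earlier results of these data known. From the wider lists, genes were named where called, without overlap between groups and among the 3 largest changes in their direction. Alternatives changed the filter, the pseudocount, the scaling, the variance trend, the groups in the model and the call, summed related genes, or left out each library. Promoters were read with Python 3.11.15 and pandas 2.3.3, and figures drawn with matplotlib 3.10.9.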

Additional observations from a re-analysis of the deposited data

Results flagged for a closer look

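These results are differences between the responses of groups that passed limma's test of the difference itself (adjusted p below 0.05), each as a difference in log2(RPKM + 1) response. In H82, the response to N1ICD was larger in REST KO than in intact cells for MICB, by 2.21. It was smaller in cells labelled STING KO for CD274, by a difference of -2.96, and for MICA, by -0.97. Without doxycycline the MICA mean was already 0.35 with that label against 0.06 in intact cells. In H524, N1ICD gave a larger response than REST for MICA (1.16), MICB (1.30), ULBP1 (1.79), CD276 (2.21) and PVR (1.05). For ULBP1 the induced means were alike, at 3.26 with N1ICD and 3.10 with REST, whereas the uninduced means were 1.28 and 2.91. The PVR call was lost in 4 of 12 fits with 1 library left out. In COR-L88, the response to TAS1440 was smaller in cells labelled STING KO for CD274 (-2.66), ULBP2 (-1.66), CD47 (-1.35) and MICB (-1.01). With 1 library left out, the ULBP2 call was lost in 10 of 12 fits and the CD274 call in 2 of 12.

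The N1ICD response of H69 minus that of H82 was 2.07 for MICA, -1.71 for ULBP1, 0.70 for ULBP3, -2.56 for CD274, 3.51 for CD276, 0.63 for PVR and -2.59 for CD47. That PVR call was lost in 2 of 12 fits with 1 library left out. The response of H524 minus that of H82 was -0.49 for ULBP3, -3.37 for CD274, -4.65 for PDCD1LG2, 1.72 for CD276, 0.66 for PVR and -0.82 for CD47. Here the ULBP3 and PVR calls were each lost in 8 of 12 such fits. The response of H69 minus that of H524 was 2.23 for MICA, -1.30 for ULBP1, 1.20 for ULBP3, 4.67 for PDCD1LG2, 1.80 for CD276 and -1.77 for CD47. These comparisons between lines share libraries, MICA in uninduced H524 and PDCD1LG2 in uninduced H69 were listed at 0, so the sizes of their differences depend on the pseudocount, and ULBP3 was below the filter within H82 and within H69.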

How the results depend on the processing

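Of 254 tests of members, 115 passed the threshold, and 93 of these passed under every alternative that refitted single genes, leaving out libraries included. Of the 22 others, 17 were lost when a library was left out. No difference that passed the test, in all libraries or in the alternative, changed sign in an alternative that kept single genes. Of the values that passed in neither, 102 in 47 member tests had another sign than the value from all libraries, mostly near 0, and the farthest apart was the REST KO difference in the PDCD1LG2 response of H82, at -0.56 and, with 0.1 added, 0.98. For CD274 with TAS1440 in COR-L88 labelled STING KO the difference was 0.35, and -0.12 without library 44. Summing RPKM over MICA and MICB reversed the MICA difference between H69 and H82 to -0.39 and that between H69 and H524 to -0.14. Summing ULBP1, ULBP2 and ULBP3 reversed ULBP3 with N1ICD in H524 (1.28), ULBP3 in uninduced H524 against its parent (-0.59), ULBP2 and ULBP3 in the H524 difference of N1ICD and REST responses (both 1.01), ULBP2 in uninduced H69 against its parent (-0.62), ULBP1 with TAS1440 in COR-L88 against DMSO (1.65) and against TAS1440 with GSI (1.62), ULBP3 between H69 and H82 (-0.56) and ULBP1 between H69 and H524 (0.24). These sums hold reads of 2 or 3 genes by construction. Without the filter 12 of 38 further tests of members below it passed. The cause of the following changes in the number of members called was not tested. Without the filter it went from 3 to 5 for STING KO against intact H82 with doxycycline, from 1 to 2 for the same without doxycycline, from 1 to 2 for the REST KO difference in response, from 1 to 0 for REST in H524 and from 1 to 2 for TAS1440 with GSI against DMSO. With 0.1 added it went from 0 to 1 for REST KO and from 1 to 4 for STING KO in uninduced H82, from 1 to 0 for REST in H524 and from 1 to 2 for uninduced H524 N1ICD cells against parental. Quantile normalization gave 0 and equal library medians 0 for STING KO in uninduced H82, and quantile normalization gave 2 for uninduced H524 against parental. With only the compared groups it became 1 for REST KO and 4 for STING KO in uninduced H82, 0 for uninduced H82 against parental, 2 for TAS1440 with GSI against DMSO and 3 between H524 and H82. Calling only log2 differences of at least 1 in size left 1 of 3 for REST KO in induced H82, 0 for STING KO in uninduced H82, 1 of 2 for the STING KO difference in response, 0 for REST in H524, 3 of 6 for N1ICD against REST, 0 for uninduced H524 against parental, 1 of 4 for uninduced H69 against parental, 5 of 8 for TAS1440 against TAS1440 with GSI, 0 for TAS1440 with GSI against DMSO, 1 of 4 for TAS1440 in STING KO COR-L88, 3 of 6 for STING KO against intact COR-L88 with TAS1440 and 3 of 6 between H524 and H82. Leaving out each library gave 0 to 1 for STING KO in uninduced H82, 0 to 1 for uninduced H82 against parental, 1 to 2 for the REST KO difference in response, 0 to 0 for REST in H524, 1 to 3 for uninduced H524 against parental, 0 to 1 for STING KO in COR-L88 with DMSO and 2 to 6 for the STING KO difference in the TAS1440 response.

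Over all genes, the count called moved most for uninduced H82 against parental (1903, and 447 with only these groups), uninduced H524 N1ICD cells against parental (3624 and 701), REST in H524 (386 and 999), the H524 REST vector line against parental (41, and 97 with 0.1 added), STING KO in COR-L88 with TAS1440 (3565 and 1825), with DMSO (710 and 241) and in the difference in response (1041 and 613), H524 against H82 (5140 and 2979) and, without the filter, KP1 with TAS1440 against DMSO (3030 and 4825), against TAS1440 with GSI (2642 and 4112) and TAS1440 with GSI against DMSO (163 and 372). Quantile normalization changed how many of the called genes were higher, from 4081 of 7576 to 3375 of 8108 for TAS1440 against DMSO, from 3637 of 6134 to 2985 of 6693 against TAS1440 with GSI, from 1095 of 3565 to 1982 of 3711 for STING KO with TAS1440, from 252 of 1041 to 520 of 1259 for that difference in response, from 2437 of 4408 to 2146 of 4951 for N1ICD in H524 and from 2897 of 5251 to 2430 of 5551 for N1ICD in H82 STING KO cells. Equal library medians gave 404 higher of 709 for STING KO in COR-L88 with DMSO, against 299 of 710. No paired analysis was possible because the numbers in the titles run through the series as library numbers and are shared by no pair of groups in a table.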
